A study of Ananas comosus with 8 samples.

Results

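The invertases described here are Aco023030, Aco023036 and Aco017533, 3 of the 27024 genes in the deposited expression matrix of pineapple leaf. They were chosen by gene identifier, as the members of the vacuolar acid invertase family that the paper names, and all 3 have a row in the matrix. Other invertase genes were not searched for, so sums and shares below are of these 3 genes alone. The leaves sampled were "D" leaves of the cultivar MD-2 (Ananas comosus var. comosus). The series compared green tip, which is the photosynthetic end of the leaf, with white base, which is its non-photosynthetic end, without any treatment or genetic change in either group. It has 8 samples, of which 4 are RNA-seq libraries (2 per tissue) and 4 are bisulfite sequencing libraries (2 per tissue), and only the RNA-seq values were analysed here. The labels give no time of day. The libraries were taken as the 10 am samples because 10 am is the only time point for which the paper's supplement lists 2 RNA-seq libraries per tissue.

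Invertases split sucrose into glucose and fructose. The vacuolar members work at acid pH inside the vacuole, where plant cells store sucrose, whereas other invertases act in the cell wall or in the cytosol. Pineapple uses crassulacean acid metabolism (CAM), in which CO2 is taken up at night and stored as malate, and the sugars kept in the vacuole are a carbon source for making the acceptor of that CO2. The comparison concerns the genes that can release hexose from vacuolar sucrose. It asks how they were divided between the photosynthetic and non-photosynthetic ends of the same kind of leaf at the time of sampling. The paper reports that expression of these invertase genes varies over the day and peaks in the early or late morning. Whether the ratios and shares below hold at other times of day was not tested.

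The matrix holds 1 FPKM value (by its name, fragments scaled by transcript length and by mapped fragments) for each gene in each tissue. Each value below is therefore the authors' value for a tissue, without SD, and no difference could be set against the spread between libraries. Both tissues hold several cell types, and fewer cells of a type cannot be told apart from less RNA per cell. Tissues were compared as the log2 ratio of green tip over white base after adding 1 to each FPKM, so changes of lowly expressed genes come out too small. The background is the 18372 genes whose mean of both tissues exceeded 0.5 FPKM, and 2-fold or more was counted as different without a test. The summed FPKM of all genes was 1.86-fold higher in green tip than in white base. The 100 highest genes held 50.0% of the sum in green tip and 18.7% in white base. The beta carbonic anhydrase gene Aco006181, which belongs to the CO2 uptake step of CAM, had 136 FPKM in green tip and 0.485 FPKM in white base, and the PPDK gene Aco024818 had 396 and 5.81 FPKM. The PEPC gene Aco010025, of the same pathway, had 633 and 239 FPKM. These 3 genes were picked with their high values in green tip known. Other carbon fixation genes were higher in white base, such as the PEPC gene Aco016429 with 7.59 FPKM in green tip and 41.2 FPKM in white base. The malic enzyme gene Aco009967 had 1.51 and 27.1 FPKM, and another PPDK gene, Aco014488, had 5.81 and 3.57 FPKM. Counts for all listed carbon fixation genes are given below.

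Aco017533 was the most highly expressed invertase gene in both tissues, with 185 FPKM in green tip and 135 FPKM in white base. Among all genes of the matrix it ranked 614th in green tip and 694th in white base. Of the genes above 0.5 FPKM, 96.4% were lower than Aco017533 in green tip and 96.2% were lower in white base, so that its place among the expressed genes was nearly equal at both ends of the leaf. It was 1.37-fold higher in green tip as deposited, a log2 ratio of 0.45, which is under 2-fold. After each column was rescaled to the same sum (TPM, a sum of 1000000), Aco017533 had 163 TPM in green tip and 220 TPM in white base, and its log2 ratio was reversed, at -0.44. Its log2 ratio was 0.45 after median-of-ratios scaling, 0.12 after quantile normalization and 0.27 after rescaling to the sum without the 100 highest genes of each tissue.

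Aco023030 had 31.1 FPKM in green tip and 2.68 FPKM in white base. It was 11.6-fold higher in green tip, with a log2 ratio of 3.13. In green tip 73.7% of the genes above 0.5 FPKM were lower than Aco023030, whereas in white base 17.5% were lower. This gene therefore lay in the upper part of the expressed genes at the green end and in the lower part at the white end. Of the 3478 genes within 2-fold of its white base level, the median in green tip was 2.62 FPKM, and 118 (3.39%) had as many FPKM in green tip as Aco023030 or more.

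Aco023036 had 5.17 FPKM in green tip and 0.201 FPKM in white base. It was the lowest of the 3 genes in both tissues, and in white base it lay below 0.5 FPKM. Above that level the study's methods took genes as expressed when comparing its data with public RNA-seq data. Its FPKM were 25.7-fold higher in green tip, and the log2 ratio on FPKM + 1 was 2.36. With a pseudocount of 0.1 in place of 1 the log2 ratio was 4.13. At that pseudocount Aco023036 had a larger ratio than Aco023030, at 3.49, so that the order of these genes by fold depends on the pseudocount. The matrix does not hold the counts behind 0.201 FPKM, and no interval can be given for this ratio.

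**Figure D1:**
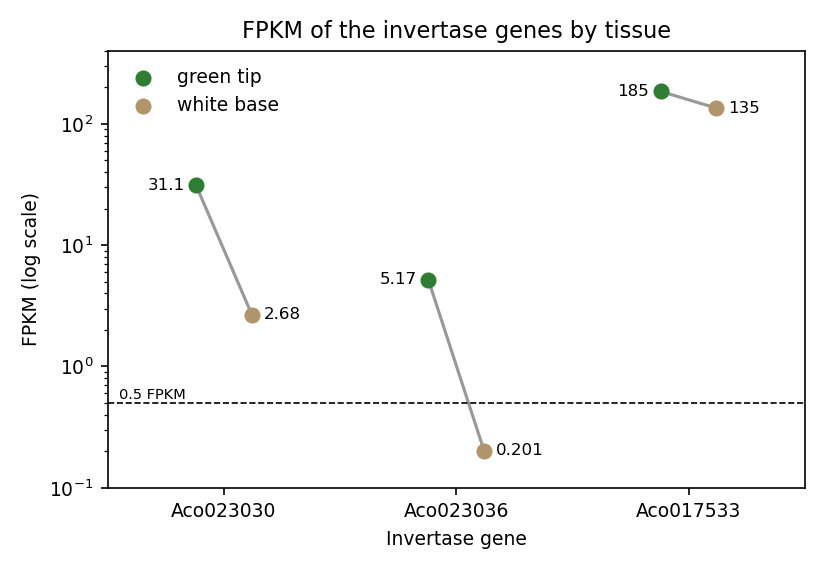
FPKM of the 3 invertase genes (y axis, log scale) in green tip and white base, 1 value of the authors per tissue, with a line joining the tissues of a gene and a dashed line at 0.5 FPKM. Aco017533 is the highest gene at both ends with 185 and 135 FPKM, whereas the lines of Aco023030 and Aco023036 fall steeply towards white base.

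At 2-fold or more, 2 of the 3 invertase genes were higher in green tip and 0 were higher in white base. Among the 18372 background genes, 17.2% were at least 2-fold higher in green tip and 20.7% in white base. After TPM rescaling these shares were 8.97% and 42.0%, and the same 2 invertase genes, Aco023030 and Aco023036, were at least 2-fold higher in green tip, at log2 ratios of 2.40 and 2.06. With 1 value per tissue these counts carry no test. The log2 ratio of Aco023030 was reached or passed by 2.63% of these genes, that of Aco023036 by 4.80% and that of Aco017533 by 30.6%. With a pseudocount of 0.1 these shares were 3.84%, 2.44% and 32.5%, and after quantile normalization that of Aco017533 was 49.8%. The median log2 ratio of the 3 genes was that of Aco023036, 2.36, beside -0.01 over all background genes.

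**Figure D2:**
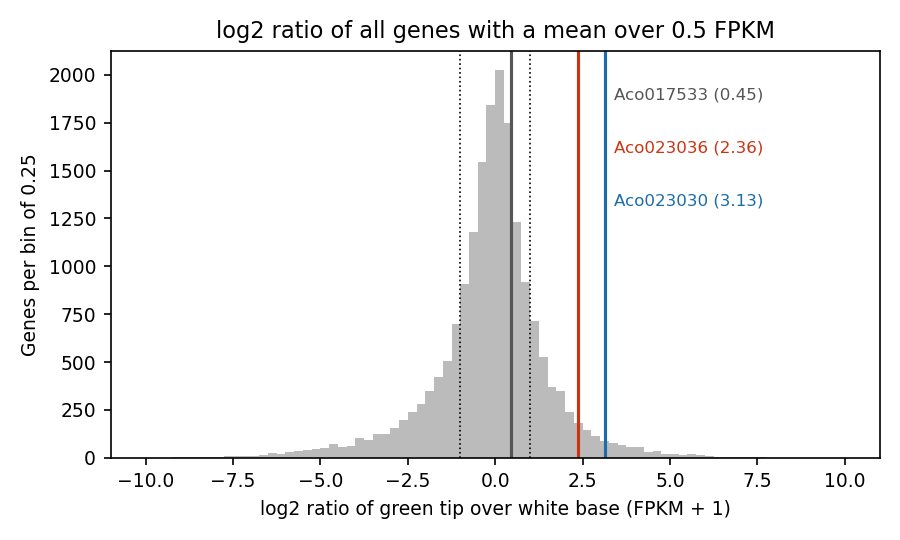
Histogram of the log2 ratio of green tip over white base on FPKM + 1 (x axis) for the 18372 background genes, as genes per bin (y axis), with dotted lines at 2-fold. The coloured lines of Aco023036 at 2.36 and Aco023030 at 3.13 lie in the right tail, and that of Aco017533 at 0.45 lies near the centre.

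The invertase sum was 221 FPKM in green tip and 138 FPKM in white base, a ratio of 1.61. This ratio was lower than that of all genes together, and as a share of the summed FPKM the invertases took 0.0195% in green tip and 0.0225% in white base. After TPM rescaling the ratio of the invertase sums was 0.865. It was 1.60 after median-of-ratios scaling, 1.31 after quantile normalization and 1.41 after rescaling to the sum without the 100 highest genes of each tissue. The direction for the 3 genes together therefore depends on how the tissues are scaled, and TPM rescaling alone put white base higher. Of the difference of 83.5 FPKM between the sums, Aco017533 gave 60.0%, Aco023030 gave 34.0% and Aco023036 gave 5.94%. This split holds for the FPKM as deposited. After TPM rescaling Aco017533 was lower in green tip, with a difference of -57.7 TPM, whereas Aco023030 and Aco023036 were higher there by 23.0 and 4.22 TPM.

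The make-up of the invertase sum does not depend on a scaling factor of the tissue, since the 3 genes share that factor. In green tip Aco017533 made 83.6% of the invertase sum, Aco023030 made 14.1% and Aco023036 made 2.34%. In white base Aco017533 made 97.9%, Aco023030 made 1.95% and Aco023036 made 0.146%. The share of Aco023030 was 12.1 percentage points higher in green tip, that of Aco023036 was 2.19 points higher, and that of Aco017533 was lower. The order of the 3 genes was the same in both tissues.

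**Figure D3:**
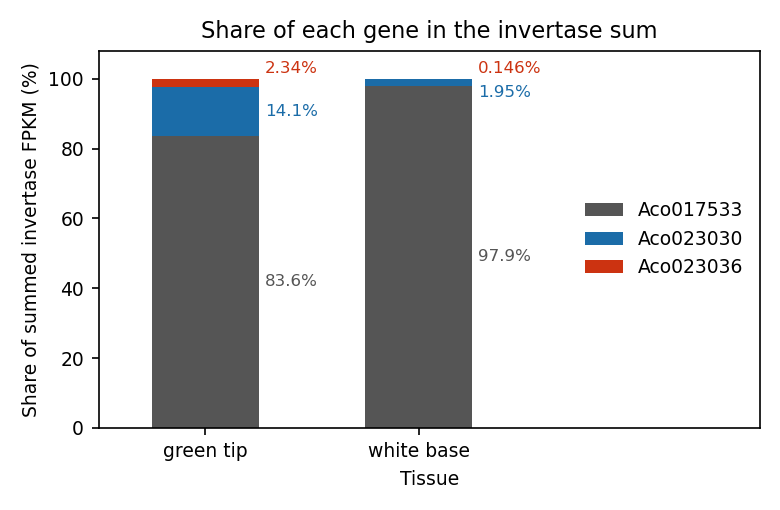
Share of each invertase gene in the summed invertase FPKM (y axis, percent) in green tip and white base, stacked to 100%. Aco017533 fills 83.6% of the bar for green tip and 97.9% of that for white base, and the part of Aco023030 is 14.1% and 1.95%.

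Ratios between the genes within a tissue are also free of a scaling factor of the tissue, though not of quantile normalization. FPKM of Aco017533 were 5.94 times those of Aco023030 in green tip and 50.3 times in white base, an 8.47-fold change of this ratio. FPKM of Aco017533 were 35.8 times those of Aco023036 in green tip and 669 times in white base, an 18.7-fold change. Aco023030 and Aco023036 moved together more closely, since FPKM of Aco023030 were 6.02 times those of Aco023036 in green tip and 13.3 times in white base, a 2.21-fold change. Both ratios against Aco023036 rest on its 0.201 FPKM in white base. After quantile normalization these changes were 13.1-fold, 41.1-fold and 3.15-fold in the same order.

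TPM rescaling moved the median log2 ratio of the background genes to -0.80, quantile normalization moved it to 0.11, and rescaling to the sum without the 100 highest genes of each tissue, an alternative chosen after seeing the data, moved it to -0.17. After quantile normalization Aco023030 stood 3.21 above this median, Aco023036 stood 2.49 above it and Aco017533 0.0048 above it, beside 3.14, 2.37 and 0.46 with the FPKM as deposited. A factor applied to a whole column shifts the genes and their median alike, so TPM rescaling leaves these distances unchanged apart from the pseudocount and is no further check of them.

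**Figure D4:**
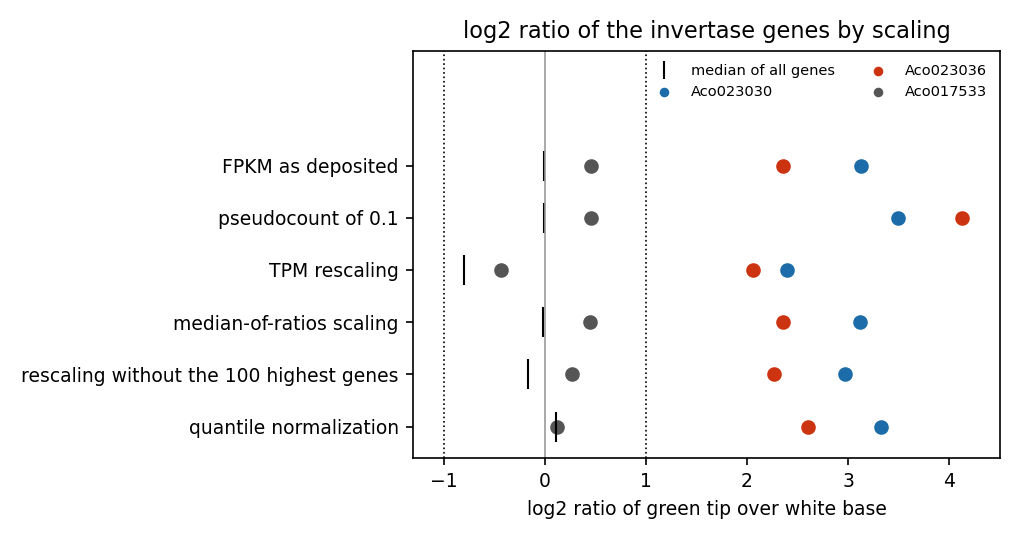
log2 ratio of green tip over white base (x axis) of the 3 invertase genes under the deposited FPKM and 5 alternatives (y axis), with a black bar at the median of the background genes and dotted lines at 2-fold. Aco017533 lies at 0.45 as deposited and at -0.44 after TPM rescaling, while Aco023030 and Aco023036 stay to the right of 2-fold in each row.

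The supplementary sheet that holds the 3 invertase genes lists 15 other genes related to transport in CAM, and 14 of them had a mean over 0.5 FPKM. Of these, 6 (42.9%) were at least 2-fold higher in green tip, beside 17.2% of the background genes. In white base 2 were at least 2-fold higher, beside 20.7% of the background genes. The median log2 ratio of the 14 genes was 0.99. The highest gene of this list by the mean of both tissues and the one with the largest ratio was Aco008167, with 4524 FPKM in green tip and 450.1 FPKM in white base. The smallest log2 ratio was -1.47, for Aco015779. Aco005379, the candidate exporter of hexose from the vacuole, had 64.1 and 35.3 FPKM and a log2 ratio of 0.84. Hexose is the product of vacuolar invertase. The ratio of Aco005379 lay between that of Aco017533 and those of Aco023030 and Aco023036. After TPM rescaling the log2 ratio of Aco005379 was -0.03, beside a median of -0.80 for the background genes. After the same rescaling 1 of the 14 genes (7.14%) was at least 2-fold higher in green tip, near the 8.97% of the background genes. In white base 2 of the 14 were at least 2-fold higher, beside 42.0% of the background genes. The median log2 ratio of the 14 genes was then 0.11, also beside -0.80 for the background genes.

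Hexose released from sucrose can enter glycolysis. All 18 genes of the glycolysis and gluconeogenesis sheet had higher FPKM in green tip as deposited. Of them, 12 (66.7%) were at least 2-fold higher, beside 17.2% of the background genes. After TPM rescaling 12 of the 18 were higher there, 7 of them (38.9%) at least 2-fold, beside 8.97% of the background genes. After quantile normalization 16 of the 18 were higher there. Their median log2 ratio was 1.63 as deposited, 0.76 after TPM rescaling and 1.17 after quantile normalization, and the log2 ratios as deposited ran from 0.24 for Aco020962 to 4.21 for Aco000731. The highest gene by the mean of both tissues, Aco018596, had 1556 FPKM in green tip and 385 FPKM in white base. Of the glycolysis genes that the paper names with Aco023036 and Aco005379, Aco005368 had a log2 ratio of 3.44 and Aco024987 of 1.74. Among the 33 carbon fixation genes of the primer table with a mean over 0.5 FPKM, 11 (33.3%) were at least 2-fold higher in green tip and 6 in white base. The shares of the background genes were 17.2% and 20.7%. The median log2 ratio of this list was 0.17. After TPM rescaling its counts were 6 (18.2%) and 11, beside 8.97% and 42.0% of the background genes. Its median was then reversed, at -0.64, beside -0.80 for the background genes. The log2 ratios of this list ran from -3.48 for the malic enzyme gene Aco009967 to 6.52 for Aco006181, and the highest gene by the mean of both tissues was the malate dehydrogenase gene Aco013935, with 845 and 251 FPKM.

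**Figure D5:**
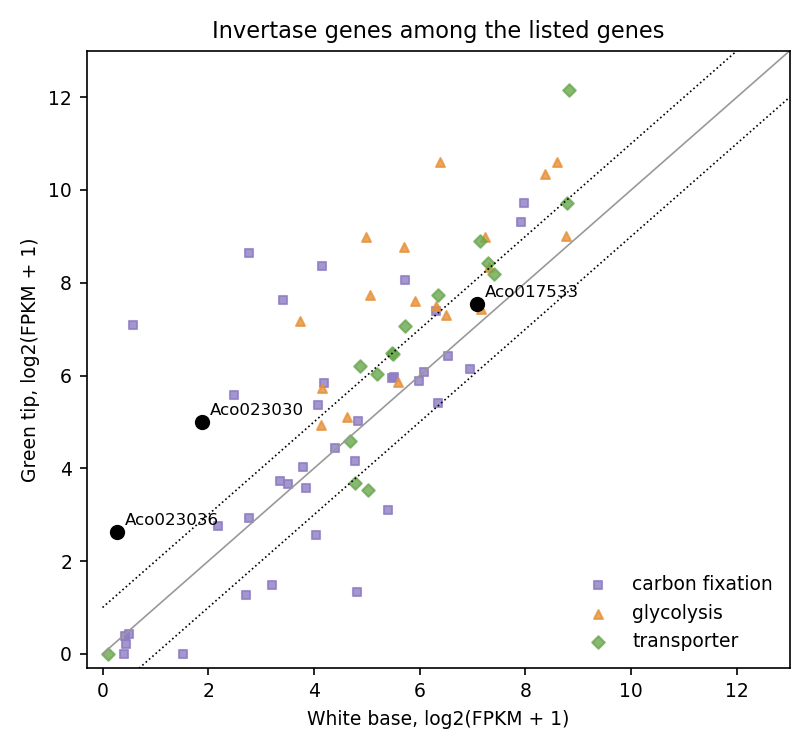
Green tip (y axis) against white base (x axis) as log2(FPKM + 1) for the 3 invertase genes (black) and the genes of the carbon fixation, glycolysis and transporter lists, with the line of equal levels and dotted lines at 2-fold. Aco023030 and Aco023036 lie above the upper dotted line at low white base levels, and Aco017533 lies between the dotted lines among highly expressed genes.

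Likeness to the invertase genes was measured over the 2 tissues alone, as the Euclidean distance on log2(FPKM + 1) to the genes of these 3 lists. Nearest to Aco023030 was the alpha carbonic anhydrase gene Aco007803, at a distance of 0.83, with 46.7 FPKM in green tip and 4.60 FPKM in white base. The next were the malate dehydrogenase genes Aco017525 and Aco004349, at 1.95 and 2.11. Their log2 ratios were 0.37 and 0.15, beside 3.13 for Aco023030. Nearest to Aco017533 were the glycolysis genes Aco011398, with 171 and 143 FPKM at a distance of 0.14, and Aco018378 at 0.63, followed by the transport gene Aco027863 at 0.73. Aco023036 had no listed gene so close. The PPDK gene Aco014488 was at 1.93, followed by the PPCK gene Aco010095 and, at 2.23, the malate dehydrogenase gene Aco019631. Aco010095 had 0.354 FPKM in green tip and 0.424 FPKM in white base, and Aco019631 had 0.317 and 0.344 FPKM. Their log2 ratios were -0.07 and -0.03, beside 2.36 for Aco023036. Among the 18372 background genes, 212 lay within a distance of 1 of Aco023030, 416 of Aco023036 and 392 of Aco017533. Each of the 3 genes therefore had other genes near it by this measure. The distance takes in the levels in both tissues, so genes within it need not have the same log2 ratio.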

How the data were processed

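RNA-seq of 4 libraries of pineapple leaf was deposited by the authors as 1 matrix of FPKM values for 27024 genes, with a column for the green tip, a column for the white base and their mean. The submitters' processing notes name TopHat2 2.1.0, Cufflinks and Cuffdiff 2.2.1, whereas the paper's methods name HISAT2 and StringTie with uniquely mapped reads. Which of them made the matrix, and how libraries were scaled to each other and merged into 1 value, is not given in the sources used here. The authors called differential expression on read counts, which FPKM values cannot repeat. Depth is unknown from the matrix, and the mapped reads listed in the paper's supplement are not used here. The 226 genes detected in both columns at a mean below 0.1 FPKM were searched for a ratio that recurs as 1 read would give. The fullest bin of the log2 ratio (width 0.01) held 13 of them. This was not compared with an expected number, so the search does not settle whether there is a common step, and no depth was taken from it. No interval, detection limit, SD or p-value was calculated, since each tissue has 1 value.

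Python 3.11.15 with numpy 2.4.6 and pandas 2.3.3 was used for log2 ratios on FPKM + 1, and matplotlib 3.10.9 for plots. The code was tested on simulated data. Percentiles are among all genes, or among genes above 0.5 FPKM in the tissue. Values were recalculated after TPM rescaling (sum of 1000000), after median-of-ratios scaling, after quantile normalization of log2 values, with a pseudocount of 0.1, and with the minimum mean set to 1 FPKM or left out. The filter was on deposited FPKM in each of them. Ratios between invertases after quantile normalization, and the carbon fixation counts and level differences after TPM rescaling, were added after seeing the data. The members and lists were chosen with earlier results of these data known. The genes named are the invertases, the highest gene and both extremes of each of the 3 lists, genes the paper names beside an invertase, the 3 listed genes nearest to each invertase, and a beta-CA, a PEPC and a PPDK gene as a check of the tissues. These last were picked with their high values in green tip known. The gene identifiers could not be matched to the RefSeq table (ASM154086v1), so no coordinates or sequences are given, and reads shared between members could not be examined.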

Additional observations from a re-analysis of the deposited data

How the results depend on the processing

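Over 62 recalculated values, 51 kept their direction and their side of 2-fold, or for counts stayed within 1.5 times, and the others are given here. TPM rescaling gave Aco017533 a log2 ratio of -0.44. It gave 1648 genes at least 2-fold higher in green tip and 7725 in white base, beside 3169 and 3812 as deposited, and it left 1 transport gene and 7 glycolysis genes at least 2-fold higher in green tip, beside 6 and 12. This follows from the 1.86-fold difference between the sums of the columns. Quantile normalization gave shares of the invertase sum in green tip of 15.2% for Aco023030, 2.92% for Aco023036 and 81.9% for Aco017533, and in white base of 1.40%, 0.0856% and 98.5%. The count of 2 invertase genes at least 2-fold higher in green tip was the same under each rescaling and with a pseudocount of 0.1. The filter was not applied to this count, so the 2 filter settings, though among the 62 values, could not change it. Leaving out the filter was also no check of the counts over all genes. With a pseudocount of 1, genes it adds cannot pass 2-fold. Median-of-ratios scaling was a weak check, with a background median of -0.02 beside -0.01 as deposited. No paired analysis was possible because each tissue has 1 column, and for the same reason no replicate could be left out. The matrix holds no counts, so no counting error can be given, in particular for the low value of Aco023036 in white base.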

Other observations

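The identifiers Aco023030 and Aco023036 are close in number. Of the 5 identifiers between them, 3 have a row in the matrix, of which 2 were listed at 0 in both tissues and the other did not pass 0.0472 FPKM in either. Among the 10 rows on each side of Aco023030 in the order of identifiers, 10 of 20 had a mean over 0.5 FPKM. Of these 10, 3 were at least 2-fold higher in green tip and 2 in white base, beside 17.2% and 20.7% of the background genes. The count of 3 includes Aco023036, itself an invertase gene. The median log2 ratio of the 10 was 0.14, beside 3.13 for Aco023030. The highest log2 ratio among them was that of Aco023036. Among the 20 rows around Aco017533, 17 had a mean over 0.5 FPKM. Of these 17, 5 were at least 2-fold higher in green tip and 1 in white base, beside the same background shares of 17.2% and 20.7%. None of the 20 had more FPKM than Aco017533 in either tissue. Whether the order of identifiers follows the genome was not examined.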
